A study of Mus musculus with 12 samples.

Results

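The regions described here are m6A peaks annotated to a 3' untranslated region (3' UTR) that run to the very last base of their annotated gene. N6-methyladenosine (m6A) is a methyl mark on adenosines of messenger RNA, and the peaks come from methylated RNA immunoprecipitation and sequencing, in which fragments bound by an m6A antibody (IP) are compared with unselected fragments (input). A peak was taken when its annotation was 3' UTR, a gene was assigned to it, and its 3' edge was the listed gene end, which is the higher coordinate on the plus strand and the lower one on the minus strand. This gave 5950 of 21156 3' UTR peaks in the Mettl3 knockout (KO) list and 5739 of 19450 in the wild-type (WT) list, or 28.1% in KO (95% Wilson interval 27.5 to 28.7) and 29.5% in WT (28.9 to 30.2). They were 5950 of all 41153 KO peaks and 5739 of all 36682 WT peaks. Each had a gene of its own, so that 45.7% of KO genes with any peak and 42.9% of such WT genes carried one.

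The samples were BV2 cells, an immortalised mouse microglial line, all treated with bacterial lipopolysaccharide (LPS), which microglia sense through TLR4. The groups were Mettl3 KO + LPS and WT + LPS, each with 3 IP and 3 input libraries, 12 in all, and no group without LPS was analysed here. How the KO line was made, whether it is a single clone and the LPS dose are not given in the labels used here, and the extraction text mentions neuroblastoma cells where the labels give BV2. The study asked which genes link METTL3 to the behaviour of LPS-treated microglia, and its text names the transcription factor gene Batf. Of 22 microglia markers 12 had a peak of any kind in each list, among them Csf1r, Spi1 and Tmem119, and P2ry12, Sall1 and C1qa had none. Of 18 neuron and neuroblastoma markers 2 had a peak, Tubb3 and Syn1, in each list. A peak is no measure of the level of a gene, so this does not settle the cell type.

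METTL3 is the catalytic subunit of the complex that places m6A on messenger RNA, mostly in long exons, around stop codons and in 3' UTRs, within the consensus that the study calls RRACH. The gene end is where the transcript is cleaved and receives its poly(A) tail, a short way downstream of a poly(A) signal, usually AATAAA or its commonest variant ATTAAA. The bases before it belong to the part of the 3' UTR that YTH-domain readers, microRNAs and AU-rich-element binding proteins use to set how long a messenger RNA lasts.

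For 36 of the 6371 genes with such a peak in either list, the last 30 bases of the gene lay within the promoter window of a neighbouring gene in RefSeq, assembly GRCm38.p6, and could be read. The lists name no build. All 6343 of the genes whose symbol RefSeq holds overlapped their place in that assembly, and 2837 ended there on the same base. The 8 ends shown span strong and weak peaks, peaks in both lists and in 1 list, and an end with no signal. Each is written 5' to 3' on the strand of the gene and stops at the base where the peak stops, and capitals mark AATAAA or ATTAAA.
Dhrs13: ccccctggAATAAAgcgagctgactgtgga
Gpatch3: gcgagAATAAAccagtttacccggcatgga
Slc12a4: tttcAATAAAacattgtgtacttctgggcc
Kctd11: aagaaaAATAAAttgctttcagaaccatga
Atp6v0c: agctgtgtccAATAAAagttctcggatgtg
Tmem102: gggggcgggacccATTAAAgattttactcc
Il1rl1: tctagcttATTAAAaaaaaaaatctagaaa
Adam8: ttttatcaatagattatagatcacattcta
In the order shown they lie at chr11:78037837-78037866 (plus), chr4:133584214-133584243 (plus), chr8:105943590-105943619 (minus), chr11:69878261-69878290 (minus), chr17:24163866-24163895 (minus), chr11:69803603-69803632 (minus), chr1:40465386-40465415 (plus) and chr7:139978932-139978961 (minus).

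Most of these ends carried a poly(A) signal in their last 30 bases. AATAAA was found on the gene's strand in 22 of 36 ends (61.1%, 95% Wilson interval 44.9 to 75.2) and ATTAAA in 11, with 1 end holding both and 32 (88.9%, 74.7 to 95.6) holding either. On the opposite strand 3 ends held either. The first 30 bases of 32851 RefSeq promoter windows held either hexamer on the gene's strand in 2.28% of cases and on the opposite strand in 2.31%. The last signal stopped a median of 16 bases before the peak's edge, between 1 and 23. The peaks stop at the annotated gene end by the rule that picked them, so the signals describe these annotated ends and not the peaks. Ends of genes without such a peak were not compared. In these 36 genes a neighbour begins close by, so they are not a sample of all the genes.

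The peaks at the printed ends differed widely in strength, which is given throughout as the log2 of IP over input that the authors deposited. Dhrs13, a short-chain dehydrogenase gene, had 1.77 in the KO list and 3.17 in the WT list. Gpatch3 had 1.82 in KO and 2.90 in WT, and the potassium-chloride cotransporter gene Slc12a4 had 1.71 in KO and 2.29 in WT. In these 3 the KO value was the lower. Kctd11, an adaptor of a ubiquitin ligase, had 2.20 in KO over 2075 bases and 1.21 in WT over 225. A second WT peak of Kctd11, of 2.71 over 1875 bases, lay under that KO span, so the higher KO value holds at the end alone. Atp6v0c, the proteolipid subunit of the vacuolar proton pump, had 1.37 in KO and 1.10 in WT. Tmem102 reached 3.65 in the WT list and had no end-reaching KO peak. Il1rl1, the interleukin-33 receptor, had an end-reaching peak in the KO list alone, at 0.59 with an adjusted p of 0.0528, 1 of only 2 KO peaks of this kind above 0.05. The metalloprotease gene Adam8, whose printed end has neither hexamer, had 0.86 in KO and 0.97 in WT.

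The agreement of the listed gene ends with RefSeq was closer for genes with these peaks than for genes whose 3' UTR peaks all stayed away from the end. The ends lay within 10 bases of each other for 79.6% (78.6 to 80.6) of 6343 genes with an end-reaching peak, and for 57.6% (56.1 to 59.0) of 4600 genes with away peaks alone. In 8.28% of the genes with an end-reaching peak and in 29.3% of the others RefSeq ended the gene more than 10 bases further in.

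The exact edge was caught more often on the minus strand. Among KO 3' UTR peaks the 3' edge was the gene end for 3633 genes on the minus strand and 2317 on the plus strand, and among WT peaks for 3515 on the minus and 2224 on the plus strand. On the plus strand a further 1366 KO and 1322 WT peaks stopped 1 to 9 bases short, against 1 in each list on the minus strand. Counting 0 to 9 bases short, the strands were almost even, with 3683 plus and 3634 minus peaks in KO and 3546 and 3516 in WT. Of the 3' UTR peaks that stopped short, 75.5% on the minus strand were a whole multiple of 25 bases short in KO and 76.5% in WT, while on the plus strand 3.92% in KO and 3.76% in WT were. The 25-base grid appeared in the lengths as well, since 200, 225 and 250 bases were the commonest spans in both lists. Enrichment did not follow the strand: the median was 0.89 on both strands in KO, and 0.95 on both in WT.

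**Figure D1:**
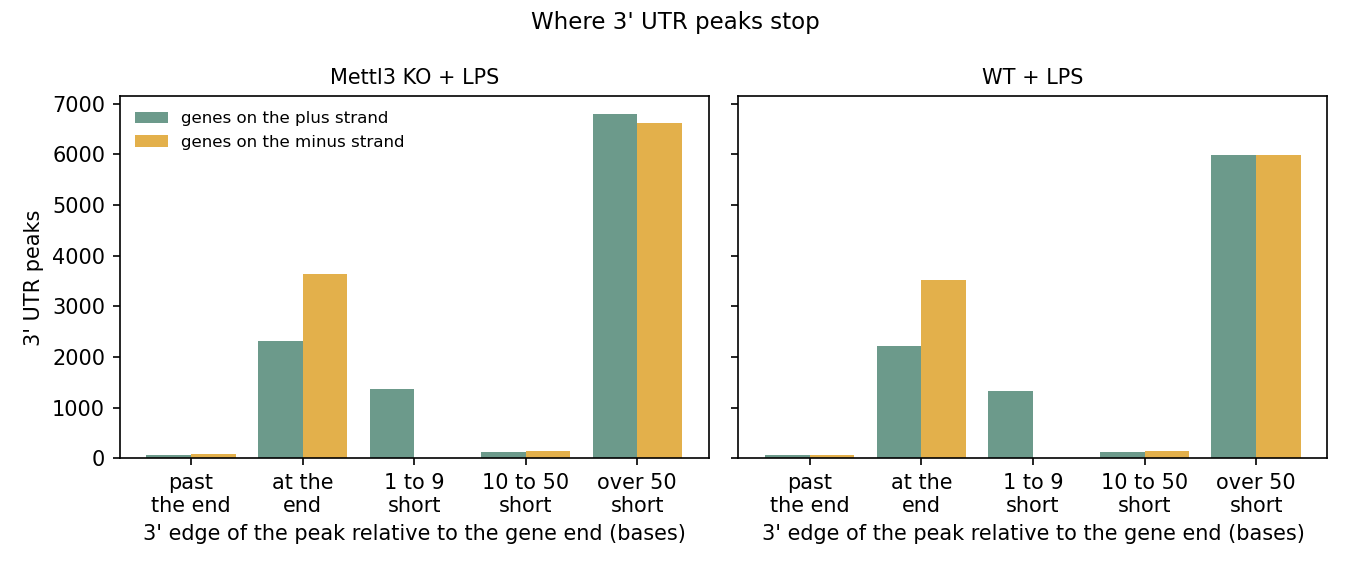
Number of 3' UTR peaks (vertical axis) by where the 3' edge lies relative to the listed gene end in bases (horizontal axis), for the Mettl3 KO list (left) and the WT list (right), with genes on the plus strand in green and on the minus strand in yellow. The bars at the end hold 2317 plus and 3633 minus peaks in KO, and those at 1 to 9 bases short hold 1366 and 1.

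The rule is strict to the base. Just inside, the 3 strongest KO peaks were those of Dhx9 (log2 of 4.65), Baiap3 (4.42) and Fam98b (4.25). Just outside, 1 base short, stood Aen at 2.50, Rpl35a at 2.30 and Fbxo8 at 2.18 in KO. In WT, Alb (8.45), Sptbn5 (5.60) and Baiap3 (5.19) were inside, and Aen (2.96), Tmem60 (2.70) and Aim2 (2.69) were 1 base short. The Batf peak that carries the study's argument was also outside: its WT 3' UTR peak, chr12:85689763-85709081 on the plus strand, stopped 6 bases before the gene end, with a log2 of 2.92 over a span of 19319 bases, and the KO list held no Batf peak. Widening the rule to 10 bases, a step added after seeing the data, takes Batf in and gives 7331 KO and 7074 WT peaks.

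Mettl3, the targeted gene, had an end-reaching peak in both lists. It lay on chromosome 14, minus strand, from 52294841 to 52295578 in KO and to 52295553 in WT, with a log2 of 0.75 in KO and 0.79 in WT. The KO value is enrichment of whatever Mettl3 fragments were in the input, so it checks neither the loss of the protein nor the labels.

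End-reaching peaks were mostly short and modest. The median log2 was 0.89 in KO (95% interval of the median 0.88 to 0.89, interquartile range 0.72 to 1.11) and 0.95 in WT (0.94 to 0.96, interquartile range 0.75 to 1.36). The away 3' UTR peaks had lower medians, 0.69 in KO and 0.81 in WT. The gap between end-reaching and away peaks was thus wider in the KO list. An enrichment of 4-fold or more was listed for 244 KO peaks (4.10%, 3.63 to 4.64), against 3.93% of all KO peaks, and 738 WT peaks (12.9%, 12.02 to 13.75), against 11.7% of all WT peaks. All intervals here cover the counting of peaks or genes alone, since a single list per genotype leaves no replicate spread and no test between genotypes.

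The median genomic span was 350 bases in KO and 365 in WT, against 475 in KO and 536 in WT for away peaks, and 78.1% of KO and 73.3% of WT end-reaching peaks spanned at most 1000 bases. Spans are stretches of genome and can include introns. The peak at the end was the strongest of its gene for 60.4% (59.1 to 61.6) of KO and 57.4% (56.1 to 58.7) of WT end-reaching peaks. It was the sole peak of its gene, and so the strongest by definition, for 906 genes in KO and 1231 in WT. The shares of away peaks, 29.96% in KO and 35.5% in WT, are no fair match, since a gene can hold several of them. In genes with both kinds of 3' UTR peak, the end-reaching one exceeded the strongest away one in 60.5% of 3011 KO genes. In WT this held for 46.9% of 2597 genes.

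Strength went with span. Among peaks of up to 250 bases, the median of end-reaching peaks was 0.73 in KO and 0.74 in WT, and 12 of 1956 KO and 10 of 2009 WT peaks reached 4-fold. Among those over 3000 bases the median was 1.18 in KO and 1.93 in WT, and 87 of 604 KO peaks (14.4%) and 335 of 715 WT peaks (46.9%) reached 4-fold. The shortest peaks of both lists were thus alike, and the lists separated as spans grew. In all 5 span classes of both lists the median of end-reaching peaks was above that of away peaks, for example 0.90 against 0.62 in KO and 0.93 against 0.69 in WT above 250 and up to 500 bases. Among peaks of up to 250 bases fewer of the end-reaching ones were strong, 0.613% (0.351 to 1.07) against 1.32% (1.01 to 1.72) of away peaks in KO, and 0.498% (0.271 to 0.914) against 2.52% (2.06 to 3.09) in WT.

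**Figure D2:**
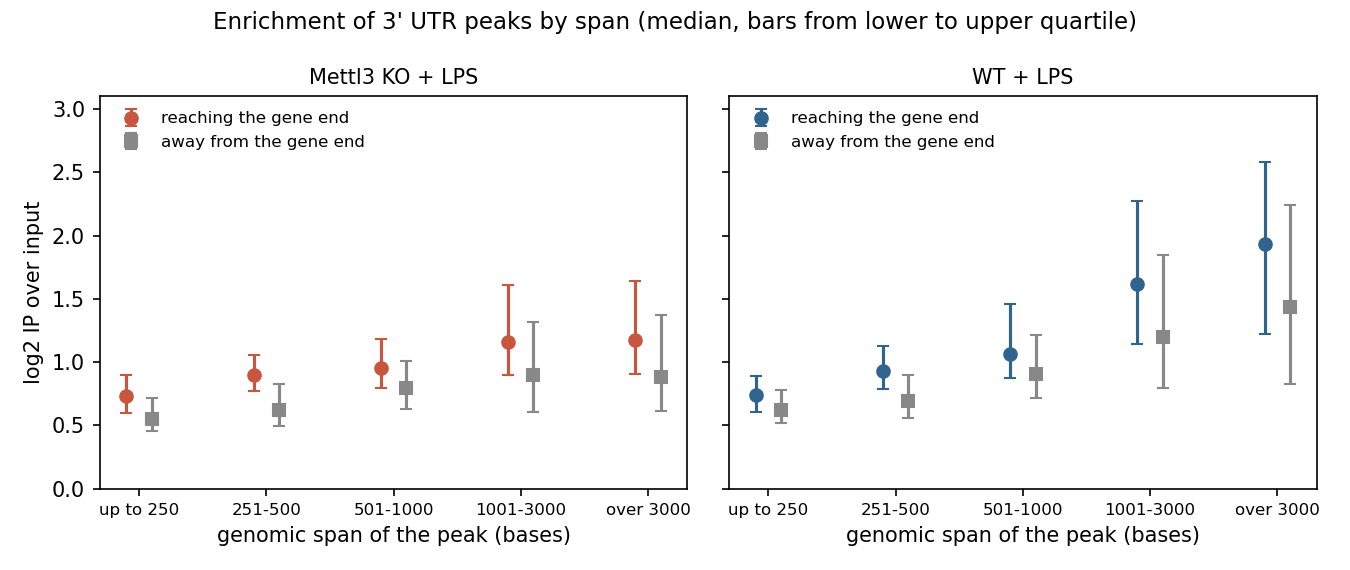
Deposited log2 of IP over input (vertical axis) by the genomic span of the peak in bases (horizontal axis), for the Mettl3 KO list (left) and the WT list (right). Coloured circles are 3' UTR peaks reaching the gene end and grey squares 3' UTR peaks away from it, points are medians and bars run from the lower to the upper quartile. The end-reaching medians climb to 1.18 in KO and 1.93 in WT and stay above the away medians in each class.

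The positions were largely the same in both genotypes. Of the end-reaching peaks, 93.2% (92.5 to 93.8) of KO and 96.1% (95.5 to 96.5) of WT shared at least 1 base with a peak of the other list on the same strand, against 76.9% of KO and 78.8% of WT away peaks. Over all peaks the shares were 72.9% in KO and 77.2% in WT. The rule sets the 3' edge at the gene end, so end-reaching peaks of the same gene in both lists always overlap. Away peaks share no such fixed base. With a reciprocal overlap of 50%, the shares were 74.5% in KO and 78.5% in WT for end-reaching peaks. They were 47.6% in KO and 53.3% in WT for away peaks, and 47.3% in KO and 53.1% in WT for all peaks. By gene, 5318 had an end-reaching peak in both lists, which is 89.4% of the KO and 92.7% of the WT genes. A further 632 genes had one in KO alone and 421 in WT alone.

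Most of the genes with an end-reaching peak in 1 list had some peak in the other. Of the 632 KO-only genes, 86 had a WT 3' UTR peak stopping within 50 bases of the gene end, 405 had one further away, 71 had a peak of another class and 70 had none. Of the 421 WT-only genes, 52 had a KO 3' UTR peak within 50 bases, 267 one further away, 38 a peak of another class and 64 none. The KO-only peaks were weak, with a median of 0.80 and 12 (1.90%) at 4-fold or more. The WT-only peaks had a median of 1.07 and 85 (20.2%) at 4-fold or more, above the 0.94 and 12.3% of WT peaks on genes with an end-reaching peak in both lists.

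The strongest WT-only peak belonged to Alb, the serum albumin gene, which had a log2 of 8.45 over a span of 13984 bases and no KO peak at all. Most of the others had a KO peak under the WT span that stopped elsewhere. Sptbn5, a spectrin, had 5.60 at the end in WT and a KO peak of 3.85 under it. Pth1r, the parathyroid hormone receptor, had 5.09 in WT over a KO peak of 2.12, the ligand gene Wnt5b 4.67 over 2.97, and the proto-oncogene Myc 4.36 over 3.40. Phf20l1, a reader of histone methylation, had 4.26 in WT and no KO peak under that span. Cx3cr1, the fractalkine receptor and a microglia marker, had 4.59 in WT over a listed span of 148930 bases that 9 KO peaks overlapped. The strongest of these had 3.46 over a similar span of 150630 bases but was not assigned to Cx3cr1. The KO list gave Cx3cr1 itself a single 5' UTR peak of 0.63.

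Of the 8 strongest KO-only peaks, 4 lay in genes with a stronger WT peak whose 3' edge was not the gene end. Frat1, a GSK3-binding protein gene of the Wnt pathway, had 2.82 at the gene end in KO over 2539 bases. A WT peak of 3.66 over 1900 bases overlapped it. Il20rb, an interleukin-20 receptor subunit, had 2.76 in KO over 3923 bases, overlapped by a WT peak of 4.60 over 3423. Il21r, the interleukin-21 receptor, had 2.63 in KO over 1299 bases, overlapped by a WT peak of 4.17 over 375. Alox15, a lipoxygenase (2.48), B3gnt4, a glycosyltransferase (2.30), and Wfikkn1, a protease inhibitor (2.30), had no WT peak. Cracr2a, a regulator of store-operated calcium entry, had 2.48 in KO, overlapped by a WT peak of 2.36, and 2.79 elsewhere in WT.

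For the 5318 genes with an end-reaching peak in both lists the paired values were close. The median difference, KO minus WT, was -0.071 (95% interval -0.080 to -0.061) on the log2 scale, with an interquartile range of -0.34 to 0.079. The KO value was the lower for 3273 genes (61.5%, 60.2 to 62.8), against 73.4% of all 12323 genes with a peak in both lists when the strongest peak of each was compared. The gap reached 1 or more downwards for 276 genes (5.19%), against 9.54% of all genes, and upwards for 8 (0.150%), against 0.714%. Over all genes the median was -0.25, so on a scale centred there the end-reaching median turned to 0.18. Which zero applies cannot be told from these lists, because IP efficiency and scaling may differ between them. The -0.25 comes from the strongest peak of any class in each gene, which is not the same measure as the 1 peak at the gene end. The centred scale is therefore an alternative reading and no better founded than the other.

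Within a gene the same contrast held. In the 2060 genes with both an end-reaching and an away 3' UTR peak in both lists, the median difference was -0.027 (-0.039 to -0.018) at the end and -0.27 (-0.30 to -0.24) for the strongest away peak, and the KO value was lower for 55.6% (53.5 to 57.8) and 83.3% (81.6 to 84.8) of genes. Span moved with this contrast: among peaks of at most 1000 bases the medians were -0.017 (-0.026 to -0.011) for 3643 end-reaching pairs and -0.061 (-0.069 to -0.053) for 4211 away pairs. Read within a list, the end-reaching peak exceeded the strongest away peak of its gene by a median of 0.12 (0.096 to 0.13) over 3011 KO genes, and in 2597 WT genes the median was -0.041 (-0.076 to -0.016). The part of span in this contrast was not tested.

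The wide gaps downwards lay mostly in the long peaks. Of the 276 genes lower in KO by 1 or more, 26 had both spans at most 1000 bases. For the 993 genes with both spans over 1000 bases the median difference was -0.51 (-0.55 to -0.47), and 816 (82.2%) were lower in KO. For the 3643 with both spans at most 1000 bases it was -0.017, and 1953 (53.6%) were lower. Spans that matched to the base gave the same picture, with -0.44 (-0.55 to -0.36) for 213 long pairs and -0.0066 (-0.016 to 0.011), an interval that includes 0, for 938 short pairs. Strength moved with it too: among pairs of identical span the median was 0.0017 for 380 with a mean log2 below 0.75, -0.10 for 230 between 1 and 1.5, and -0.87 (-0.97 to -0.74) for 88 at 2 or more.

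Where the spans differed, the direction of the difference in span went with that in value. In 433 genes the WT peak spanned over 1000 bases and the KO peak at most 1000. Their median difference was -0.53 (-0.58 to -0.48), and 394 (91.0%) were lower in KO. In the 249 genes with the reverse order of spans it was 0.017 (-0.0055 to 0.048) and 110 (44.2%) were lower. In these 433 genes, which were picked by their spans, 2 or more KO peaks lay under the WT span in 299 (69.1%), against 129 of the 993 genes with both spans over 1000 bases and 125 of the 3643 short pairs (3.43%). Taking the strongest KO peak under each WT span, a step added after seeing the data, left -0.47 (-0.52 to -0.43) for the 433 genes and cut their number lower by 1 or more to 39, against 84 with the end-reaching KO peak.

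**Figure D3:**
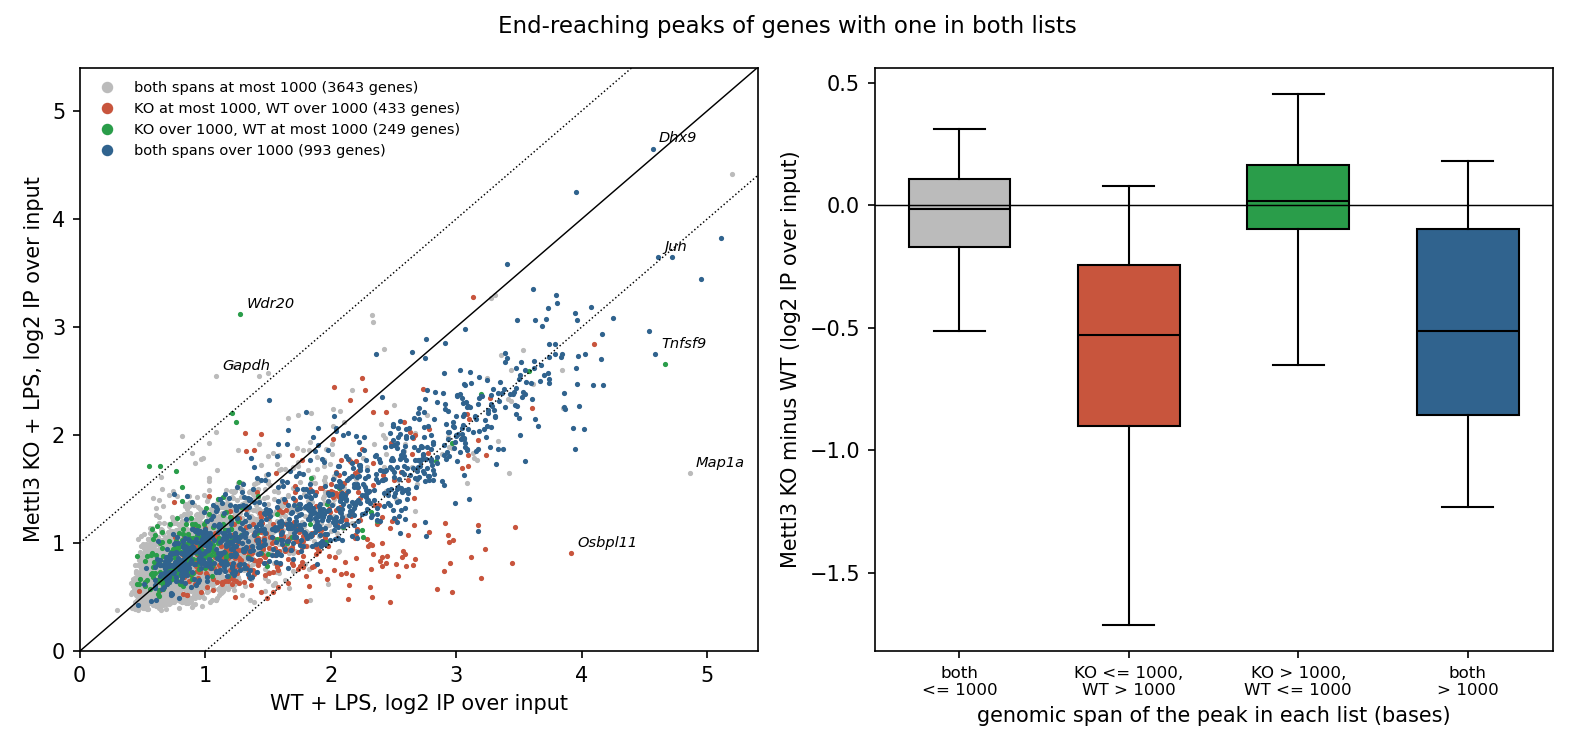
Left, log2 of IP over input of the end-reaching peak in Mettl3 KO (vertical axis) against WT (horizontal axis) for 5318 genes, coloured by the spans of the peak in each list, with a solid line at equal values and dotted lines 1 above and below. Right, KO minus WT for the same 4 span classes, with boxes from the lower to the upper quartile, the median as a line and whiskers from the 5th to the 95th percentile. Short pairs centre on -0.017 and pairs with both spans over 1000 bases on -0.51.

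The 10 genes with the lowest KO minus WT value show this. In 9 of them the KO peak at the end spanned at most 750 bases and the WT peak 2918 to 18879, with a stronger KO peak elsewhere under the WT span. Osbpl11, an oxysterol-binding protein gene, had 0.91 in KO over 241 bases and 3.92 in WT over 6523, and another KO peak under the WT span had 2.79. Arel1, a ubiquitin ligase gene, had 1.15 in KO and 3.47 in WT, with 2.78 elsewhere under the span in KO. Il10ra, the interleukin-10 receptor through which macrophages are restrained, had 0.87 in KO and 3.12 in WT, a difference of -2.24, and its second KO peak had 2.53, which is 0.59 below the WT value. The exception was Map1a, a microtubule-associated protein gene and the lowest of all at -3.21: its peak had the same 266 bases in both lists, with 1.65 in KO and 4.86 in WT.

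The 10 highest differences were smaller and mixed. Wdr20, a cofactor of deubiquitinases, had 3.12 in KO over a span of 64045 bases and 1.28 in WT over 393. Gapdh, the glycolytic dehydrogenase, had 2.55 in KO and 1.08 in WT with spans of 450 bases in KO and 325 in WT. Fancd2os had 2.55 in KO and 1.43 in WT over the same length of 275 bases, and Atp5g1, which makes the c subunit of ATP synthase, 2.58 in KO and 1.50 in WT over 250 bases in KO and 275 in WT. Hid1 had 2.64 in KO and 1.22 in WT, and Copg2, a coatomer subunit, 1.99 in KO and 0.81 in WT. Hdc, the enzyme that makes histamine, had 1.61 in KO and 0.65 in WT. In Wdr20 a WT peak of 4.01 over 63602 bases lay under the KO span. The same held in Msantd4, with 2.51 over 7962 bases against 1.71 in KO over 8484. In Ninl it was 2.49 over 18558 bases against 1.71 in KO over 18958, and in Kctd11 2.71 over 1875 against 2.20 over 2075. Each of these WT peaks was stronger than the KO peak, so KO was not the higher over the longer span. In the other genes of the 10 no stronger WT peak lay under the KO span.

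**Figure D4:**
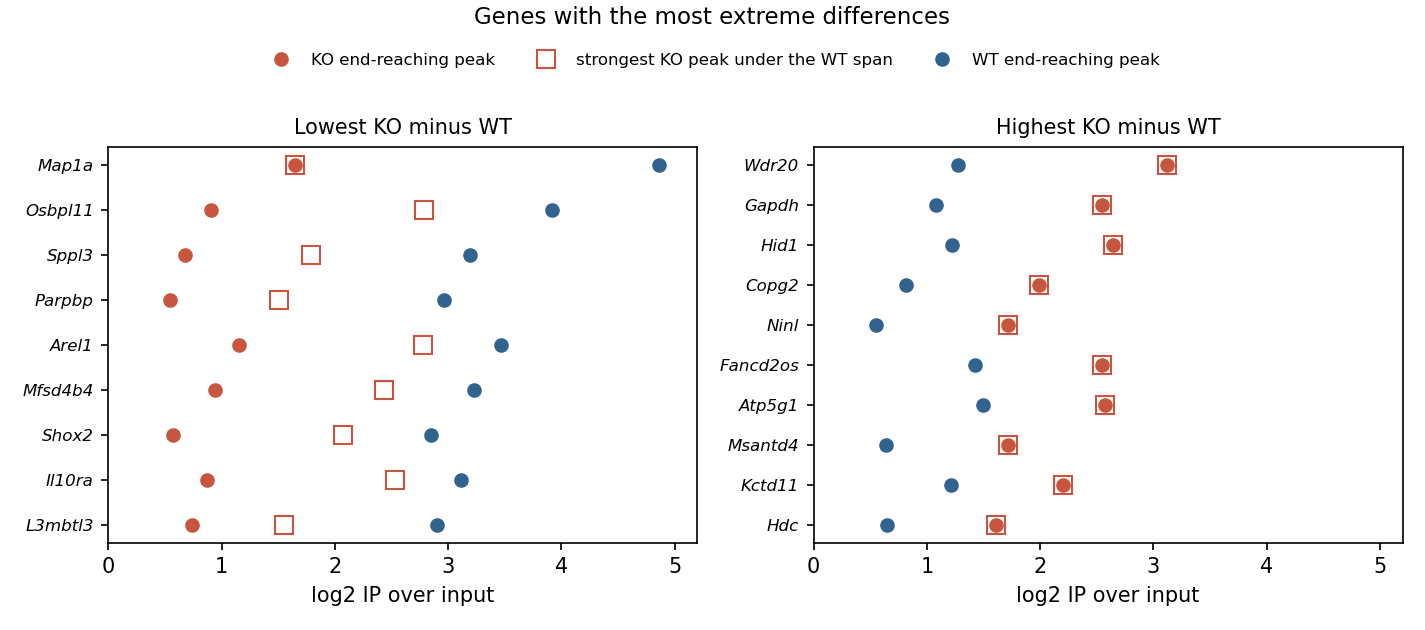
Log2 of IP over input (horizontal axis) for 9 of the 10 genes with the lowest (left) and the 10 with the highest (right) KO minus WT difference at the gene end. Red dots are the KO end-reaching peak, red squares the strongest KO peak under the WT span and blue dots the WT end-reaching peak. On the left the squares lie between the dots in 8 of 9 genes, and for Map1a square and red dot coincide at 1.65.

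The 10 strongest end-reaching peaks of the KO list all had a WT counterpart at the gene end. Of the 10 strongest in WT, 4 were found at the end in WT alone, those of Alb, Sptbn5, Pth1r and Wnt5b. Dhx9, an RNA helicase, topped the KO list with 4.65 and had 4.56 in WT. Fam98b, a partner of the tRNA ligase complex, had 4.25 in KO and 3.95 in WT, and Zfp326 had 3.58 in KO and 3.40 in WT. Gorasp2, a Golgi stacking protein gene, had 3.29 in KO and 3.31 in WT from a peak of 270 bases in KO and 220 in WT. These 4 stood about level or higher in KO, unlike most strong peaks. Baiap3 had 4.42 in KO and 5.19 in WT on an identical 225-base peak, Thap7 had 3.82 in KO and 5.11 in WT, Mocs3, a molybdenum cofactor enzyme, 3.45 in KO and 4.95 in WT, and the linker histone gene H1f2 3.35 in KO and 3.61 in WT. A peak that ran the whole gene from start to end was found in 57 KO and 71 WT genes, with a median of 1.52 in KO and 2.67 in WT, and 21 of them in KO and 46 in WT stood at 4-fold or more.

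The gene lists below were chosen with results of these data known. Each is described by its count and median beside the -0.071 of all end-reaching pairs and the -0.25 of all genes. The KO value was the lower in 61.5% of all end-reaching pairs and 73.4% of all genes, so a majority of lower pairs is the rule here. The AP-1, BATF and IRF transcription factors had the lowest median under the exact edge rule, but not under wider ones. Of 9 with an end-reaching peak in both lists, 7 were listed lower in KO. The median was -0.87, which is -0.62 on the centred scale. With edges within 10 or within 50 bases of the gene end 15 pairs entered, 11 lower and 4 higher, and the median was -0.13, above the -0.24 of the feedback inhibitors, the -0.20 of the interferon genes and the -0.15 of the m6A writers. Jun had 3.65 in KO and 4.61 in WT on an identical span of 3189 bases, Jdp2 2.72 in KO and 3.83 in WT on 37497, and Junb, named after its values were seen, 1.12 in KO and 2.03 in WT on 1800. Jund had 1.65 in KO and 2.74 in WT, Atf3 2.10 in KO and 2.92 in WT, and Maff 1.30 in KO and 2.17 in WT. Batf2 had an end-reaching peak in WT alone (2.04) and Atf2 in KO alone (0.53). All but 1 of these pairs had a span over 1000 bases in at least 1 list.

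Among the feedback inhibitors all 8 pairs were listed lower in KO. The median of -0.35 became -0.10 on the centred scale, with 4 lower and 4 higher. The phosphatase gene Dusp4 had 1.27 in KO and 2.37 in WT, Dusp1 1.46 in KO and 2.04 in WT, and Socs3, which blocks cytokine receptor signalling, 1.35 in KO and 2.01 in WT. The 4 with both spans at most 1000 bases had a median of -0.061. Egr2 had 3.12 at the end in WT alone, and a KO peak of 3.16 lay under that span. Klf4, Btg2 and Tgfb1 had end-reaching peaks in KO alone (1.42, 0.68 and 0.49). The Klf4 peak, of 1050 bases, was overlapped by a WT peak of 2.74 over 3083 bases, and the Btg2 peak by a WT peak of 0.91. Btg2 and Tgfb1 also had a stronger WT peak elsewhere, of 1.18 in Btg2 and 1.90 in Tgfb1.

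In the TLR4 and NF-kB pathway 9 of 21 pairs were lower and 12 higher in KO, with a median of 0.038. In 8 of the 9 lower pairs the peak spanned over 1000 bases in at least 1 list. Of all 3273 end-reaching pairs lower in KO, 1953 had both spans at most 1000 bases. Irak2, a kinase downstream of the receptor, had 1.76 in KO and 2.80 in WT on 2073 bases in both, and Tab1 had 2.50 in KO and 3.25 in WT on 2951 in both. The adaptor Ticam1 had 1.65 in KO and 2.10 in WT, the inhibitor Nfkbie 1.43 in KO and 2.02 in WT, and Tnip1 1.35 in KO and 1.70 in WT. Of the 12 pairs with short peaks in both lists, 1 was lower and 11 were higher in KO, with a median of 0.070. Nfkb1 (0.82) and Tnfaip3 (0.53) had end-reaching peaks in WT alone, and Tab3 (0.82), Rel (0.80) and Ticam2 (0.51) in KO alone, all of them below the median of their list.

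Among the LPS-induced cytokines and mediators, 7 of 13 pairs were lower and 6 higher in KO, with a median of -0.090 that turned to 0.16 on the centred scale and was -0.025 with an adjusted p of 0.001 or less. Tnfsf9, the ligand 4-1BBL, had the widest gap, 2.75 in KO and 4.58 in WT, and it was the only peak of the gene. Acod1, the itaconate-making enzyme, had 1.004 in KO and 1.91 in WT, and Csf1 2.57 in KO and 2.90 in WT. Il23a went the other way, with 1.60 in KO and 1.03 in WT on short peaks. Of the 21 genes of this list with an end-reaching peak in either list of peaks, 7 had it in WT alone and 1 in KO alone. Among all 6371 such genes the shares were 6.61% in WT alone and 9.92% in KO alone. The 7 were Lif (2.47), Csf2 (1.46) and Csf3 (1.20), and, named after their values were seen, Il1b (0.90), Nos2 (0.75), Ccl12 (0.73) and Il1a (0.55). The 1 was the chemokine gene Ccl4 (0.55). Lif had a KO peak of 1.54 under its WT span and one of 2.11 elsewhere. Csf2 and Csf3 had no KO peak of any kind and Ccl4 no WT peak, and without input values fewer transcripts and fewer methylated ones cannot be told apart.

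Of 17 interferon response pairs, 11 were listed lower in KO, close to the 61.5% of all end-reaching pairs. The median of -0.14 turned to 0.10 on the centred scale. Isg15, a ubiquitin-like modifier, had 1.52 in KO and 2.54 in WT on an identical span of 1339 bases. Ifit3 had 1.46 in KO and 2.45 in WT, the receptor subunit gene Ifnar2 2.36 in KO and 3.19 in WT, and Eif2ak2, the RNA-sensing kinase PKR, 2.30 in KO and 3.05 in WT. Among the 11 short pairs the median was -0.0035, with 6 lower and 5 higher. The widest gap upwards, 0.90, was that of Cmpk2, named after its values were seen, with 1.67 in KO over 8577 bases and 0.77 in WT over 213.

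**Figure D5:**
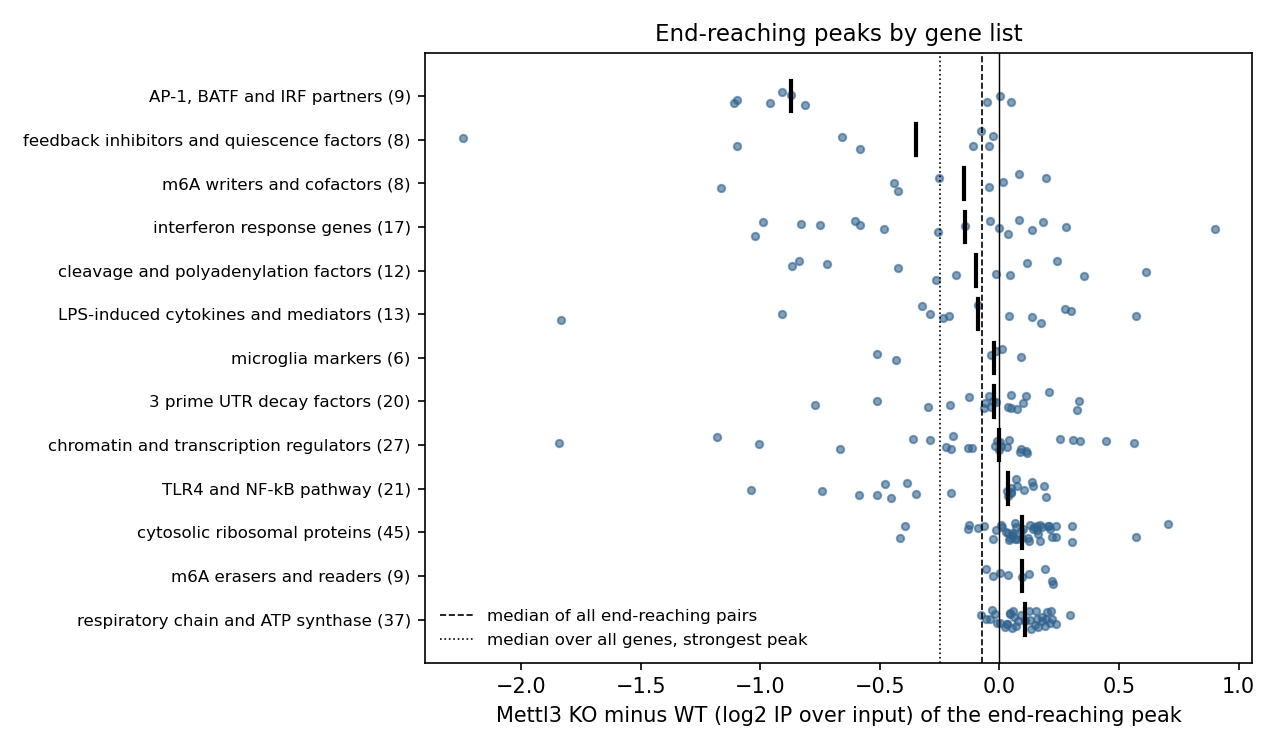
KO minus WT of log2 IP over input at the gene end (horizontal axis) for each gene of a list with an end-reaching peak in both lists (dots, number in brackets) with the list's median as a black bar. The dashed line marks the median of all end-reaching pairs, -0.071, and the dotted line that of the strongest peak over all genes, -0.25. Under the exact edge rule plotted here the AP-1 genes sit lowest with a median of -0.87 (-0.13 with edges within 10 bases), and the respiratory chain genes highest with 0.11.

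Genes of translation and respiration were on the other side. Of 45 cytosolic ribosomal protein genes with a pair, 37 were higher in KO, with a median of 0.093 and a range of -0.42 to 0.70, and none differed by 1 or more. Rps13 had 2.02 in KO and 1.32 in WT, Rps19 2.01 in KO and 1.44 in WT, and Rps10 2.89 in KO and 2.76 in WT on an identical span. Rpl7 was lower, with 1.35 in KO and 1.75 in WT. The gaps were small, and most of them shared a sign. In the respiratory chain and ATP synthase list 31 of 37 were higher in KO, with a median of 0.11 and a range of -0.076 to 0.30: Atp5k had 1.34 in KO and 1.14 in WT, Ndufa5 1.30 in KO and 1.08 in WT, Sdhb 1.59 in KO and 1.44 in WT, and Uqcrb 1.27 in KO and 1.14 in WT. Both lists kept a positive median among short peaks, 0.081 for 26 ribosomal and 0.068 for 21 respiratory genes. Their medians were positive on the centred scale too, where 43 of 45 ribosomal and 37 of 37 respiratory genes were higher in KO. On that scale 3689 of all 5318 end-reaching pairs were higher in KO, so a majority of higher pairs is the rule there. End-reaching peaks in KO alone were found on 4 of 50 ribosomal genes, among them Rps15a (1.17), Rpl26 (0.97) and Rpl28 (0.81). In WT alone Rps12 (1.08) had one. Of all 6371 genes with such a peak, 9.92% had it in KO alone and 6.61% in WT alone. WT peaks whose 3' edge was not the gene end overlapped those of Rps15a (1.08), Rpl26 (0.87) and Rpl28 (0.72). Reads of ribosomal protein genes can also come from their many processed pseudogenes, and no source used here says how these were treated.

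The m6A machinery itself was split. Of 8 writers and cofactors with a pair, 5 were listed lower in KO, close to the 61.5% of all end-reaching pairs. The median of -0.15 turned to 0.10 on the centred scale. It was -0.014 at an adjusted p of at most 0.001, with 3 lower and 3 higher, and -0.042 with equal numbers of peaks. Wtap, the regulatory partner of METTL3, had 1.05 in KO and 2.21 in WT on long spans, and Virma, the scaffold of the complex, 0.59 in KO and 1.02 in WT. The ubiquitin ligase component Cbll1 had 1.04 in KO and 0.96 in WT and the ribosomal RNA methyltransferase gene Mettl5 1.44 in KO and 1.42 in WT. Rbm15, the adaptor, had 2.34 at the end in WT alone, over a KO peak of 1.76. Of 9 erasers and readers, 7 were higher in KO, with a median of 0.094: Ythdf3 had 0.81 in KO and 0.58 in WT, Eif3a 0.84 in KO and 0.65 in WT, Hnrnpa2b1 1.50 in KO and 1.38 in WT, and Ythdf1 1.04 in KO and 0.94 in WT. Igf2bp3 was close to level, with 0.70 in KO and 0.75 in WT, a gap that turned on the centred scale. Rbmx (0.56), Prrc2a (0.46) and Ythdc1 (0.45) had end-reaching peaks in KO alone, all below the KO lower quartile of 0.72.

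Factors that act on 3' UTRs and gene ends showed no common direction. Of 12 cleavage and polyadenylation factors, 7 were listed lower in KO, close to the 61.5% of all end-reaching pairs. The median of -0.10 turned to 0.15 on the centred scale and to 0.080 among 8 short pairs. Wdr33, the subunit that binds the poly(A) signal, had 1.16 in KO and 2.03 in WT, Pabpn1, the nuclear poly(A)-binding protein, 0.97 in KO and 1.81 in WT on a peak of 313 bases in both, Rbbp6 1.41 in KO and 2.12 in WT, and Scaf4 2.13 in KO and 2.55 in WT. The poly(A) polymerase gene Papolg had an end-reaching peak in KO alone (1.27) and a WT peak of 3.26 elsewhere. Of 20 decay factors, 11 were lower and 9 higher, with a median of -0.021 that turned to 0.23 on the centred scale. Zfp36, which binds AU-rich elements, had 0.65 in KO over 625 bases and 1.16 in WT over 2050, and Tnrc6c, a partner of Argonaute, 1.13 in KO over 268 and 1.89 in WT over 5366. Zc3h12a, the ribonuclease Regnase-1, had 1.09 in KO and 1.05 in WT, and Rc3h2, also called Roquin-2, 1.34 in KO and 1.22 in WT on 300 bases in both.

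The chromatin and transcription regulators divided by span, as end-reaching pairs in general did. Of 27 pairs, 14 were lower and 13 higher in KO, with a median of -0.0024 that turned to 0.25 on the centred scale and to 0.036 among 20 short pairs. Of the 7 pairs with a longer span in either list 6 were lower in KO. Over all end-reaching pairs the share lower in KO was 82.2% with both spans over 1000 bases. It was 91.0% with the WT span alone over 1000 bases and 44.2% with the KO span alone. Chd8 had 2.00 in KO and 3.01 in WT, and Chd7 2.08 in KO and 2.74 in WT, both chromatin remodellers. Ncor1 had 0.69 in KO over 250 bases and 2.54 in WT over 4638, with a KO peak of 1.39 elsewhere under the WT span. The acetyltransferase gene Crebbp had 1.26 in KO and 0.95 in WT on short peaks. Of 6 microglia markers with a pair 4 were lower, with a median of -0.023 that turned to 0.22 when centred: Csf1r had 1.01 in KO and 1.44 in WT, and Spi1 0.85 in KO and 1.37 in WT. Tmem119 (1.03) and Aif1 (0.75) had end-reaching peaks in KO alone. The Tmem119 peak was overlapped by a WT peak of 1.06, and the gene had 2.03 elsewhere in WT. Aif1 had a WT peak of 1.03 elsewhere. Of the markers of other cell types, Syn1 had 1.01 in KO and 0.94 in WT. Aldoc (0.93) and Cnp (0.84) had end-reaching peaks in KO alone. The Cnp peak, of 10352 bases, was overlapped by a WT peak of 0.88 over 10238, and Aldoc had a WT peak of 0.73 elsewhere.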

How the data were processed

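MeRIP-seq of LPS-treated BV2 cells was analysed from 2 deposited peak lists, 1 for Mettl3 KO and 1 for WT. Each row is a peak with its position, region and gene, and, per the file headers, the authors' log2 fold change of IP against input, p-value and adjusted p-value. Per the submitters' processing notes, edgeR, StringTie, HOMER, HISAT2, FastQC and fastp were used, in versions not stated. The peak caller, any pooling of replicates and the build: not given in the sources used here. No per-library value was used, so depth is unknown and there is no test between genotypes; p-values that underflow are listed as 0.

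Starts were counted from 0 and are printed 1-based. A span is the genomic length of a peak. Shares have 95% Wilson intervals and medians 95% order-statistic intervals. Differences are KO minus WT of a gene's end-reaching peak. A log2 value of 2 or more means 4-fold or more. RefSeq tables of GRCm38.p6 gave gene ends and sequence. The members, the 16 gene lists and the tests were chosen with earlier results of these data known.

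Genes were named by rule: Batf and Mettl3, the 10 strongest in each list, the 10 lowest and 10 highest differences, the 8 strongest in 1 list only, up to 5 strongest per gene list with up to 3 per gene list in 1 list only, and 3 on each side of the edge rule, leaving out clone-like names. A few genes taken by it are not reported here. The genes with printed sequences, and others said to be, were chosen after seeing their values. The alternatives were an adjusted p of at most 0.001, edges within 50 or 10 bases of the gene end, spans of at most 1000 bases, equal numbers of peaks, a reciprocal overlap of 50%, the mean over a gene's peaks, centring on all genes, and the strongest KO peak under the WT span. Code was tested on simulated data. Tools were numpy 2.4.6 and pandas 2.3.3 under Python 3.11.15, with matplotlib 3.10.9 and SciPy 1.17.1. Input expression and the RRACH motif were not analysed here.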

Additional observations from a re-analysis of the deposited data

How the results depend on the processing

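No paired analysis was possible because the lists hold 1 value per peak and genotype, with no column for a replicate. With adjusted p limited to 0.001 the end-reaching share was 31.8% in KO and 32.3% in WT, the median log2 0.91 in KO and 0.97 in WT, the WT share at 4-fold 13.8%, the overlap 92.2% in KO and 94.2% in WT, and the genes higher in KO by 1 or more 5. With edges within 50 bases the share was 35.9% in KO and 37.8% in WT and the overlap 92.5% in KO and 95.5% in WT. Within 10 bases the share was 34.7% in KO and 36.4% in WT. With spans of at most 1000 bases the share was 31.6% in KO and 33.0% in WT, the median 0.84 in KO and 0.85 in WT, the share at 4-fold 1.27% in KO and 2.83% in WT, the overlap 91.5% in KO and 95.1% in WT, KO-only genes 1005, the median difference -0.017, and 26 genes stood lower in KO by at least 1 and 5 higher. With equal numbers of peaks the KO share was 29.9%, the KO median 0.90 and the overlap 94.4% in KO and 94.3% in WT. With a reciprocal overlap of 50% the shares were 74.5% in KO and 78.5% in WT. Centring turned the median difference to 0.18 and left 120 genes lower by at least 1 and 23 higher. The strongest KO peak under the WT span put 18 genes higher by 1 or more. The mean over a gene's end-reaching peaks changed nothing, each gene having 1. In all, 55 of the 91 values for these results stayed within 1.5 times the count or within the interval, and the cause of the others was not tested.

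Among list medians that turned, cleavage factors stood at 0.014 within 50 bases, 0.080 with short spans and 0.15 centred, and decay factors at 0.011 within 50 and within 10 bases, 0.036 with short spans and 0.23 centred. Cytokines stood at 0.14 with short spans and 0.16 centred, chromatin regulators at 0.036 and 0.25, and microglia markers at 0.011 and 0.22. Writers turned to 0.10 (0.0998) and interferon genes to 0.10 (0.103) when centred. Others moved without turning. AP-1 genes stood at -0.13 within 10 and within 50 bases, feedback inhibitors at -0.061 with short spans and -0.10 centred, and interferon genes at -0.0035 with short spans. Writers stood at -0.014 and cytokines at -0.025 with adjusted p limited to 0.001. With the strongest KO peak under the WT span writers stood at -0.25. Of single genes, Igf2bp3 (0.19), Cnot6l (0.19), Gorasp2 (0.23) and Mettl3 (0.21) turned when centred. Only 28 of 87 named pairs had both spans at most 1000 bases. Depth, replicate spread and the amount of RNA behind a peak are not known here, and weak peaks near the lower bound of a list (0.35 in KO and 0.30 in WT) can fall in 1 list through small differences.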

Other observations

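Some end-reaching peaks took in a microRNA hairpin of RefSeq (GRCm38.p6), a lookup made after the values were seen. Mir678 lay inside a 300-base peak at the end of Prmt2, an arginine methyltransferase gene, 104 bases from the gene end, with a log2 of 0.88 in KO and 1.36 in WT. Mir5125 lay in the end-reaching peak of Srrm2, a splicing factor gene, with 2.00 in KO and 2.10 in WT, and Mir5100 in that of Mief2 with 2.35 in KO and 3.53 in WT. Mir101b lay in a WT peak of Rcl1 with a log2 of 2.04 and a span of 9452 bases, and Mir7079 in a KO peak of Rpl13 with 1.55 and a span of 390 bases. The poly(A)-selected libraries measure host transcripts, so these values say nothing of mature microRNAs.

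Peaks annotated to 5' UTRs that begin at the first base of the gene form the mirror class, with 1146 peaks in KO and 1050 in WT. Their median log2 was 0.80 in KO and 1.06 in WT, with median spans of 1083 bases in KO and 1165 in WT. Of these, 80.7% (78.3 to 82.9) of KO and 85.9% (83.7 to 87.9) of WT peaks overlapped a peak of the other list, against 93.2% of KO and 96.1% of WT end-reaching peaks.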
